A study of Rattus norvegicus with 15 samples.

Results

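Oxidant production, nitric oxide synthesis and arginine use were followed through 9 genes across the lungs of 3 groups of rats, by their levels in an RNA-seq table of 22250 genes. The genes were taken by name: Cybb, Cyba, Ncf1 and Ncf4 of the phagocyte NADPH oxidase, the nitric oxide synthases Nos2 and Nos3, the arginases Arg1 and Arg2, and Ass1. Each of the 9 names stood on 1 line of the table. The SJY group received lipopolysaccharide (LPS, a component of the bacterial outer membrane that provokes inflammation) into the trachea and Sang Ju Yin, a Chinese herbal formula, into the stomach. The ALI group, named for acute lung injury, received LPS into the trachea, and the control group is labelled normal control. Each group had 5 libraries, called here by the number in their labels (SJY 1, 3, 4, 5 and 6, ALI 1 to 5, control 4 to 8). All rats are labelled wild type and all RNA is labelled lung. The labels give no strain, age, dose or time, do not say whether a library is 1 animal, and name no group given the vehicle or the herbal formula alone. P-values therefore measure the spread between these libraries.

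The phagocyte NADPH oxidase makes superoxide when a membrane pair, gp91phox (Cybb) and p22phox (Cyba), is joined by cytosolic subunits that include p47phox (Ncf1) and p40phox (Ncf4), and by a Rac GTPase. Neutrophils and macrophages use it against bacteria. Nitric oxide synthases turn arginine into citrulline and nitric oxide. The inducible form (Nos2) is made by activated macrophages and other cells after LPS, and the endothelial form (Nos3) acts in the vessel wall. Arginases compete for the same substrate and turn it into ornithine and urea, while argininosuccinate synthase (Ass1) begins the route from citrulline back to arginine.

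Levels are in FPKM, the fragments of a gene divided by its length and by the library's total, so that levels of different genes can be set side by side. The steps of the FPKM values gave back whole fragments for 99.9% of the 18545 genes with any signal (within 0.02 of a whole number), at 9433336 to 12403341 fragments per library. Library ALI 1 stood apart: mitochondrial genes made up 37.7% of its FPKM, against 5.19% to 17.1% in the other 14. Lung markers were present in all groups. The summed FPKM of 8 alveolar type II genes was 17780 to 20280 in SJY lungs, 6106 to 21100 in ALI lungs and 16530 to 25270 in control lungs, with 3 of the 8 lower in SJY and 2 in ALI than in control. Markers of neutrophils moved with the treatment: 11 of 13 tested were higher and 1 lower in ALI lungs, and likewise 11 and 1 in SJY lungs, both against control. Against control, the test below called 8.02% of all genes higher and 9.56% lower in ALI lungs, and 14.6% and 18.1% in SJY lungs. Marker counts against control, here and below, are to be read beside these shares. The summed FPKM of the 15 neutrophil genes was 8408 to 14890 in SJY lungs, 2313 to 23230 in ALI lungs and 236 to 292 in control lungs, with the granule genes Mpo and Ltf under 1 FPKM in every library. In bulk lung RNA, fewer cells of a type and less RNA per cell cannot be told apart.

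All 4 oxidase genes were higher in both LPS-treated groups than in control lungs, with no overlap between libraries. Nos2 was also called higher in both, from a very low level, but its ALI call held in only 12 of 22 other settings. Nos3, Arg1, Arg2 and Ass1 did not pass the test in any comparison. No gene of the 9 passed it between SJY and ALI lungs. The test was limma on log2(FPKM + 1), with Benjamini-Hochberg adjustment over the 13457 genes tested and a threshold of adjusted p 0.05, and a log2 change below is always on this scale. A total of 5 of the 9 genes were called higher in ALI lungs against control, where 8.02% of all genes tested were, and 0 of the 9 were called lower, where 9.56% of all genes were. Against control, SJY lungs had 5 of the 9 called higher, where 14.6% of all genes were, and 0 called lower, where 18.1% were. At an unadjusted p under 0.05 stood 6 of the 9 in ALI lungs, all higher, where 35.0% of all genes did, and 8 in SJY lungs, of which Arg2 and Ass1 were lower, where 43.6% of all genes did. Limma-voom on recovered fragments called 6 of the 9 higher in each group, where it called 10.1% of all genes higher in ALI and 17.1% in SJY lungs. All 9 passed the filter on low values, but Nos2 passed through its SJY and ALI libraries alone, with 1 FPKM or more in 7 libraries.

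**Figure D1:**
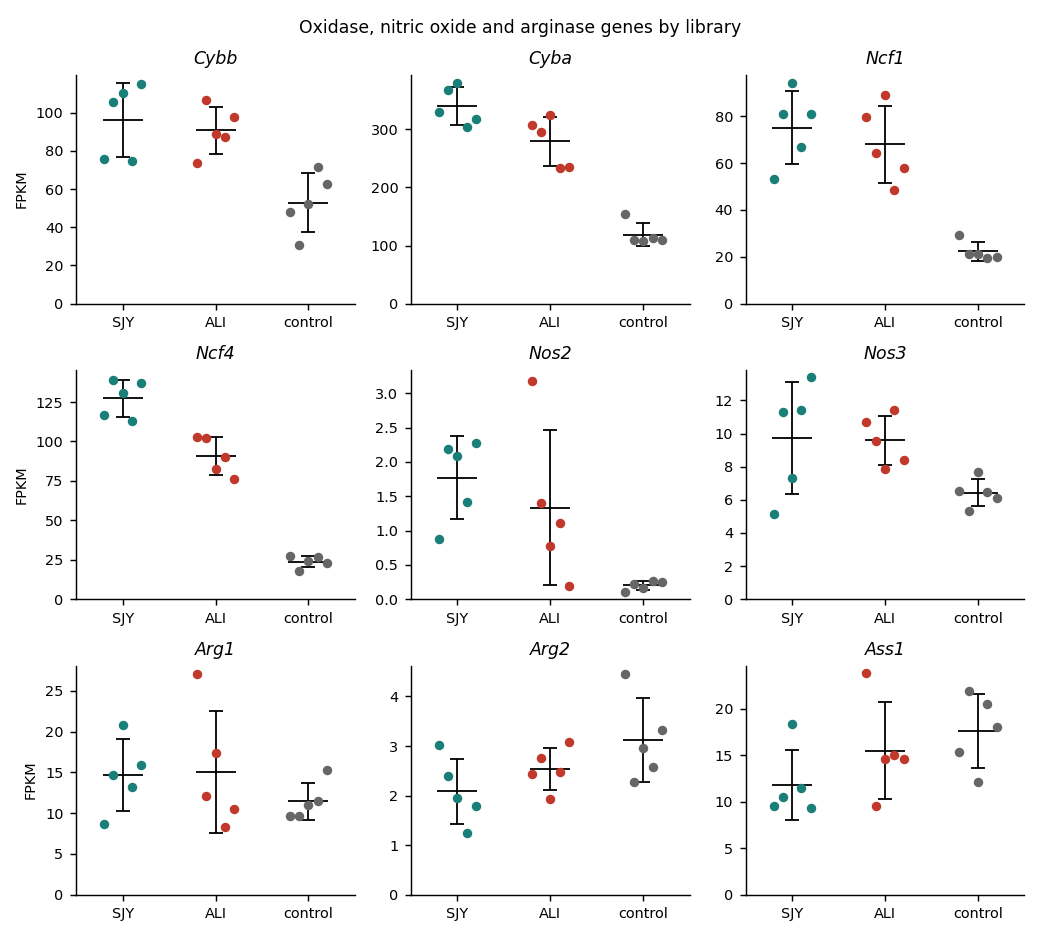
FPKM (vertical axes, from 0) of the 9 genes in each of the 15 libraries, by group. Points are libraries in the order of their label numbers, and the horizontal line with its bars is the mean and SD of 5 libraries. The oxidase genes in the first 4 panels sit higher in SJY and ALI than in control libraries without overlap, whereas Arg1, Arg2 and Ass1 overlap between all groups.

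Ncf4 (ENSRNOG00000006940), the p40phox subunit that binds a phosphoinositide on the phagosome membrane, differed most clearly. Its FPKM was 117, 139, 131, 113.1 and 137.1 in SJY libraries 1, 3, 4, 5 and 6, against 103, 102, 82.5, 90.2 and 76.4 in ALI libraries 1 to 5 and 27.6, 18.1, 23.9, 26.7 and 23.0 in control libraries 4 to 8. The 3 groups did not overlap at all: every SJY library was above every ALI library, and every ALI library above every control library. Against control, the log2 change was 1.89 ± 0.12 (SE, n = 5 each) in ALI lungs, with an adjusted p of 5.82e-07, and 2.38 ± 0.12 in SJY lungs, with an adjusted p of 1.87e-08. The SE of a log2 change, here and below, comes from limma. It rests on 1 spread per gene fitted over all 15 libraries, not on the 2 compared groups alone. In both comparisons with control Ncf4 had rank 2 by p among all 13457 genes.

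Cyba (ENSRNOG00000013014), which stabilises gp91phox and also serves other NADPH oxidases, was the most abundant of the 9 genes in every group. Its FPKM was 329.8, 367.8, 380.2, 304.5 and 318.6 in SJY libraries, against 306.8, 296.2, 324.8, 233.4 and 235.6 in ALI libraries and 155.1, 109.1, 107.8, 113.3 and 109.9 in control libraries. Both LPS groups lay wholly above control, while SJY and ALI overlapped, with 3 SJY libraries above all of ALI. The log2 change against control was 1.23 ± 0.13 in ALI lungs (adjusted p = 2.65e-05) and 1.52 ± 0.13 in SJY lungs (adjusted p = 1.27e-06).

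Ncf1 (ENSRNOG00000001480), the p47phox organiser that is phosphorylated on activation, had 53.2, 80.8, 94.0, 66.7 and 80.9 FPKM in SJY libraries, against 79.9, 64.4, 89.3, 48.7 and 57.7 in ALI libraries and 29.4, 21.2, 21.4, 19.5 and 20.0 in control libraries. SJY and ALI libraries were interleaved and both lay above all 5 control libraries. Its log2 change against control was 1.55 ± 0.18 in ALI lungs (adjusted p = 4.63e-05) and 1.70 ± 0.18 in SJY lungs (adjusted p = 8.95e-06).

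Cybb (ENSRNOG00000003622), the catalytic subunit, differed least among the oxidase genes. It had 75.5, 105.5, 110.5, 74.8 and 114.8 FPKM in SJY libraries, against 73.5, 106.7, 88.7, 87.4 and 97.5 in ALI libraries and 48.0, 30.5, 52.1, 71.4 and 62.9 in control libraries. The lowest ALI library, ALI 1, was 73.5 FPKM and the highest control library, control 7, was 71.4 FPKM, so that the groups were separate by a narrow margin. Cybb had a log2 change against control of 0.81 ± 0.20 in ALI lungs (adjusted p = 0.0125) and 0.88 ± 0.20 in SJY lungs (adjusted p = 0.00420). Among 23 other settings, the calls of Cybb, Cyba, Ncf1 and Ncf4 against control held in 23 of 23 for both LPS groups.

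No overlap with control, in the higher direction, was found for 5 of the 9 genes in ALI lungs (the 4 oxidase genes and Nos3) and for 5 in SJY lungs (the 4 oxidase genes and Nos2), where 6.17% and 11.8% of all genes tested showed it. The ratio of Cybb to Cyba within a library was 0.283 ± 0.0509 in SJY lungs, 0.332 ± 0.0730 in ALI lungs and 0.455 ± 0.156 in control lungs (SD, n = 5 each). The ratio of Ncf4 to Ncf1 was 1.74 ± 0.291 in SJY lungs, 1.40 ± 0.347 in ALI lungs and 1.09 ± 0.202 in control lungs. Cybb to Cyba overlapped between all groups. Ncf4 to Ncf1 was higher in every SJY library (1.39 to 2.20) than in any control library (0.855 to 1.37), and ALI (0.924 to 1.85) overlapped both. The ratios were not tested. Beside these values stand the neutrophil sums above and those of macrophages. The 9 alveolar macrophage genes summed to 286.7 to 399.5 FPKM in SJY lungs, 286.4 to 414 in ALI lungs and 212 to 265.9 in control lungs, with Marco at 0 in every control library and 5 of 9 higher and 1 lower in SJY lungs, 4 and 1 in ALI lungs, both against control. Of all genes, 14.6% were called higher and 18.1% lower in SJY lungs, and 8.02% and 9.56% in ALI lungs. For monocytes, 4 of 8 genes were higher and 0 lower in either LPS group. The 8 genes summed to 11310 to 16030, 4680 to 18250 and 12550 to 18420 FPKM in SJY, ALI and control lungs. The part of these cells in the oxidase values was not tested.

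**Figure D2:**
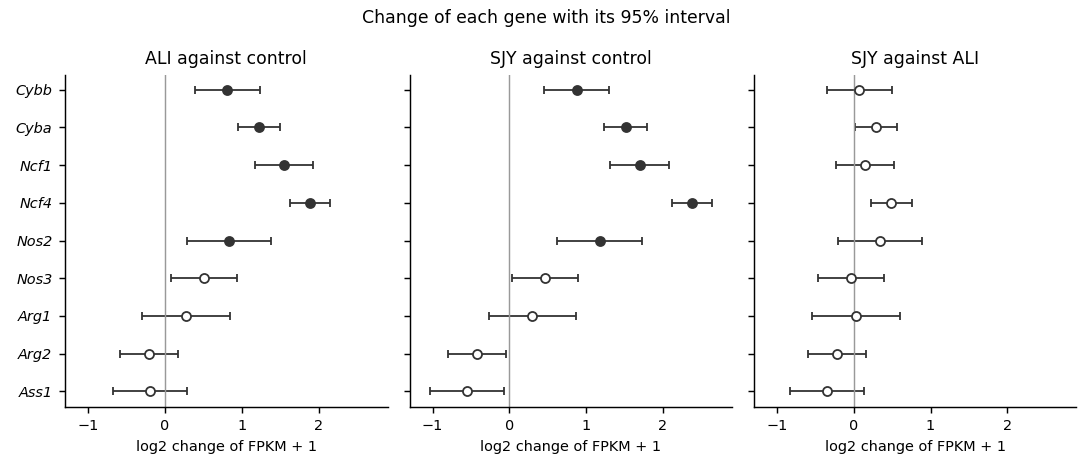
Log2 change of FPKM + 1 (horizontal axes) of each of the 9 genes in the 3 comparisons, with the 95% interval from limma. Filled points passed an adjusted p of 0.05. The filled points are the 4 oxidase genes and Nos2 in the 2 comparisons with control, and no point is filled between SJY and ALI.

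Promoter windows from RefSeq, 250 bases before to 50 after the gene's start, were found for 5 of the 9 genes. The windows are on the rat build GRCr8, whereas the expression table rests on Rnor_6.0, and they are read on the gene's strand. Those of the 3 oxidase genes with a window are shown because these genes differed together, with each match to a searched motif in capitals. Cybb is at chrX:16065016-16065315 on the minus strand, Cyba at chr19:67404165-67404464 on the minus strand and Ncf1 at chr12:28121635-28121934 on the plus strand.
Cybb: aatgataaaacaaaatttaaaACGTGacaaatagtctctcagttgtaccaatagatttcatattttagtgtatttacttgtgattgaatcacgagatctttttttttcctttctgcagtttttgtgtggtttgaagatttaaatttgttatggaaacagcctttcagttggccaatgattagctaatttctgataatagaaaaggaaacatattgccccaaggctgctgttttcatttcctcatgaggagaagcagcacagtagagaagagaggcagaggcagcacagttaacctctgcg
Cyba: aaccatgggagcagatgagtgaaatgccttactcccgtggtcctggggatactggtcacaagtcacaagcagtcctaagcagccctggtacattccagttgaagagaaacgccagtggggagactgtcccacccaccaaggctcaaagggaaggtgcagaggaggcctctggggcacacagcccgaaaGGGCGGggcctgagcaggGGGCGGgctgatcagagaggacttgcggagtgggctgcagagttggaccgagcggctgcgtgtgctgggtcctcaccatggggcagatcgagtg
Ncf1: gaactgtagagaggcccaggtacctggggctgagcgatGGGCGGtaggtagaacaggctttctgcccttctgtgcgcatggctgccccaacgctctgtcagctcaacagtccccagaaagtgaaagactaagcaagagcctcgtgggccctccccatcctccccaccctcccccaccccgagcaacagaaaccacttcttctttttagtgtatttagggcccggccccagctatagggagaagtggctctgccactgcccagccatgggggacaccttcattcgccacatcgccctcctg
Counted from the 5′ end of the window, Cybb held ACGTG, the core of hypoxia response elements, at bases 22 to 26. Cyba held the GC box GGGCGG at bases 189 to 194 and again at bases 207 to 212, and Ncf1 held it at bases 39 to 44. The window of Nos3, a gene that did not pass the test, is not shown and also held GGGCGG, at bases 145 to 150. Of all 33469 rat windows of this length, 19.3% held ACGTG and 33.1% held GGGCGG on either strand. Matches did not overlap one another. The other motifs searched on both strands were GGGANTTCC for NF-kB (1.64% of all windows), GAGGAAGT for PU.1 (2.42%), TTGCGCAA and TTNNGNAAT for C/EBP (0.17% and 12.3%) and TTCNNNGAA for STAT factors (8.87%), and these letters were not in the 5 windows. A match describes letters and not a bound site.

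Of the oxidase's partner genes, 7 of 8 listed were tested, and 3 were higher and 0 lower in ALI lungs against control, with the same counts in SJY lungs. Over all genes tested, 8.02% were called higher and 9.56% lower in ALI lungs, and 14.6% and 18.1% in SJY lungs. The counts of this list and of those below are to be read beside these shares. With libraries rescaled by the median of ratios, 5 of the 7 partner genes were higher in ALI lungs and 6 in SJY lungs. Of all 13457 genes, 1473 were then called higher in ALI lungs and 2382 in SJY lungs. That rescaling moved the median log2 change of all genes to 9.77e-05 for ALI and -0.00432 for SJY against control. Without it, the median log2 change of the 7 was 0.29 in ALI and 0.33 in SJY lungs, where it was -0.12 and -0.11 over all genes. Rac2, the haematopoietic Rac GTPase of the assembled enzyme, had 310.4 ± 31.4 FPKM in SJY lungs, 295.4 ± 70.5 in ALI lungs and 112.4 ± 8.20 in control lungs, with log2 changes against control of 1.46 (adjusted p = 3.33e-06) and 1.36 (adjusted p = 1.78e-05). Rac1, its widely expressed relative, was higher by 0.33 in SJY lungs (adjusted p = 0.0174) and by 0.29 in ALI lungs (adjusted p = 0.0487), and the ALI call was lost on leaving out any of 13 libraries (adjusted p up to 0.101). Rap1a, a small GTPase found with the membrane pair, was higher by 0.43 in SJY lungs (adjusted p = 0.0310), a call lost without SJY 1, SJY 4, control 5, control 6 or control 8 (adjusted p up to 0.0823). Pik3cg, the leukocyte phosphoinositide 3-kinase gamma, was higher by 0.79 in ALI lungs (adjusted p = 0.0215), and its adjusted p was 0.0520 without ALI 3.

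Among 9 genes of other NADPH oxidases, 6 were tested. Noxo1, which organises the NOX1 oxidase of epithelia, had 13.95 ± 2.495 FPKM in SJY lungs, 26.9 ± 15.01 in ALI lungs and 2.502 ± 0.277 in control lungs. It was higher than in control by 2.08 on the log2 scale in SJY lungs (adjusted p = 0.000176) and by 2.81 in ALI lungs (adjusted p = 2.65e-05), while Nox1 itself reached at most 1.265 FPKM, in an ALI library, and was not tested. Duox1, a dual oxidase of the airway surface, had 0.955 ± 0.337 FPKM in SJY lungs and 2.20 ± 0.525 in control lungs and was lower by a log2 change of -0.71 (adjusted p = 0.0206), a call lost without SJY 1 (adjusted p = 0.0532) or control 8 (adjusted p = 0.0543). In ALI lungs 1 of the 6 was higher and 0 lower, where 8.02% and 9.56% of all genes were. In SJY lungs 1 was higher and 1 lower, where 14.6% and 18.1% of all genes were.

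Enzymes that remove superoxide and peroxide changed in both directions. Of 11, all tested, 7 were higher and 1 lower in SJY lungs against control, where 14.6% and 18.1% of all genes were. In ALI lungs 6 were higher and 2 lower, where 8.02% and 9.56% of all genes were. The median log2 changes of the 11 were 0.55 in SJY and 0.29 in ALI lungs. Sod2, the mitochondrial superoxide dismutase, had 352.1 ± 63.7 FPKM in SJY lungs, 595.3 ± 661 in ALI lungs and 65.6 ± 11.2 in control lungs, with log2 changes of 2.40 (adjusted p = 0.000688) and 2.67 (adjusted p = 0.000549). The highest ALI library held 1771 FPKM, and without ALI 1 the ALI change was 2.15 (adjusted p = 3.27e-06). The peroxiredoxins Prdx5 and Prdx1 were higher by 1.83 and 0.97 in SJY lungs (adjusted p = 0.000152 and 0.000645) and by 1.42 and 0.65 in ALI lungs (adjusted p = 0.00198 and 0.0147). The Prdx1 call in ALI lungs was lost in a fit of the 2 compared groups alone (adjusted p = 0.0510). Prdx6, a peroxiredoxin abundant in lung, had 229.1 ± 18.9 FPKM in SJY lungs, 241.5 ± 52.3 in ALI lungs and 487 ± 32.5 in control lungs, with log2 changes of -1.09 (adjusted p = 3.01e-05) and -1.03 (adjusted p = 9.78e-05). Sod3, the extracellular superoxide dismutase, was lower in ALI lungs by a log2 change of -1.34 (adjusted p = 0.0345), and leaving out any 1 of the 5 control libraries lost that call (adjusted p 0.0522 to 0.0724). Sums of the 7 alveolar type I genes were lower as well, at 1505 to 2388 FPKM in SJY lungs, 647 to 2012 in ALI lungs and 2861 to 3975 in control lungs. In ALI lungs 7 of those 7 were lower and in SJY lungs 5 of 7, with none higher in either, and their part in these values was not tested.

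Nos2 (ENSRNOG00000057443) was the least abundant of the 9 genes in every group. It had 0.875, 2.19, 2.08, 1.41 and 2.28 FPKM in SJY libraries 1, 3, 4, 5 and 6, against 3.18, 1.39, 0.782, 1.11 and 0.198 in ALI libraries 1 to 5 and 0.106, 0.224, 0.160, 0.271 and 0.245 in control libraries 4 to 8. All SJY libraries were above all control libraries. ALI ran from the highest value of the 15, in ALI 1, down to a value inside the control range, in ALI 5. These values rest on 76 to 205 fragments in SJY libraries, 16 to 286 in ALI libraries and 9 to 23 in control libraries. With a 95% counting interval of 9.14 to 26.0 around its 16 fragments, ALI 5 could not be told from control at this depth. Such intervals are exact Poisson ones and cover counting error only.

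The log2 change of Nos2 was 1.18 ± 0.26 in SJY lungs against control (adjusted p = 0.00352). In ALI lungs it was 0.84 ± 0.26 (adjusted p = 0.0365), with 4 of 5 libraries above control. This scale understates low genes: the ratio of mean FPKM was 8.78 for SJY over control and 6.63 for ALI over control, and 4.33 for ALI without ALI 1. The ALI call did not stand in every setting. It was lost on leaving out ALI 1, ALI 2, ALI 4 or any control library, with adjusted p between 0.0516 and 0.0715. A fit of ALI and control libraries alone also lost it (adjusted p = 0.0729). In all, it held in 12 of 22 other settings (adjusted p 0.00663 to 0.36). The SJY call held in 21 of 22. ALI 1 also had the highest neutrophil sum (23230 FPKM) and ALI 5 the lowest among ALI libraries (2313 FPKM), and ALI 1 the highest mitochondrial share (37.7%). Their part in the Nos2 values was not tested.

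**Figure D3:**
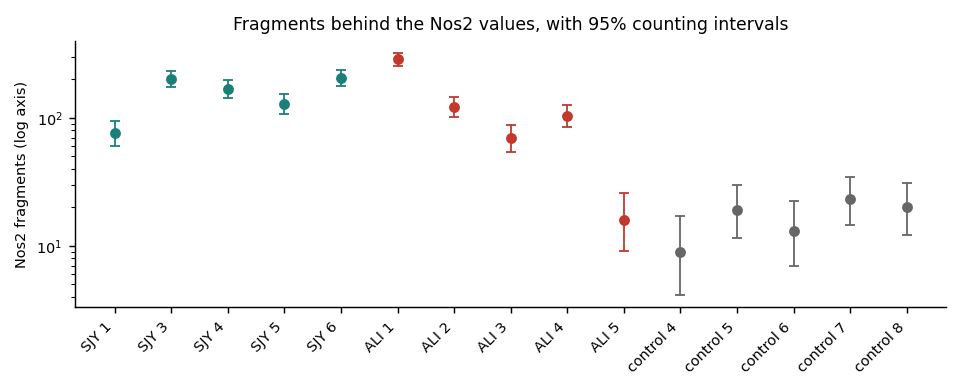
Fragments assigned to Nos2 in each library (vertical log axis), recovered from the FPKM values, with exact 95% Poisson intervals as bars. Counts run from 76 to 205 in SJY, 16 to 286 in ALI and 9 to 23 in control libraries, and ALI 5 lies among the controls.

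Nos3 (ENSRNOG00000009348) had 5.15, 11.3, 7.33, 11.4 and 13.4 FPKM in SJY libraries, against 10.7, 9.56, 7.86, 11.4 and 8.42 in ALI libraries and 6.56, 5.36, 7.66, 6.50 and 6.11 in control libraries. All ALI libraries were above all control libraries, but SJY spread from the lowest value of the 15 to the highest. Nos3 did not pass the test: the log2 change was 0.51 in ALI lungs (95% interval 0.08 to 0.93, adjusted p = 0.0918) and 0.47 in SJY lungs (0.04 to 0.90, adjusted p = 0.0865), both against control. Without SJY 1, which held the lowest value, both passed, with adjusted p of 0.0356 and 0.0109. With rescaled libraries Nos3 also passed in both (0.64, adjusted p = 0.0364, and 0.57, adjusted p = 0.0385). Of 7 endothelial markers tested, 1 was higher and 1 lower in either LPS group, and the 9 genes summed to 627 to 908 FPKM in SJY lungs, 395 to 844 in ALI lungs and 638 to 893 in control lungs, with Cldn5 listed at 0 throughout. Their part in the Nos3 values was not tested.

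In SJY lungs Nos2 made up 15.7% ± 4.09 of the FPKM of the 3 nitric oxide synthases, against 11.2% ± 7.57 in ALI lungs and 3.09% ± 1.18 in control lungs (SD, n = 5 each). The neuronal form Nos1 stayed under 1% in every library. Nos3 was thus the most abundant synthase in all 15 libraries, with at least 77.0% of the total. The ratio of Nos2 to Nos3 was 0.123 to 0.284 in SJY libraries, 0.0235 to 0.298 in ALI libraries and 0.0161 to 0.0418 in control libraries, so that SJY did not overlap control and ALI did through ALI 5.

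Of 9 tested genes that regulate nitric oxide synthases, 3 were higher and 2 lower in SJY lungs against control, where 14.6% and 18.1% of all genes were. In ALI lungs 2 were higher and 1 lower, where 8.02% and 9.56% of all genes were. Nostrin, which carries endothelial synthase away from the membrane, had 110.2 ± 27.0 FPKM in SJY lungs, 76.7 ± 17.4 in ALI lungs and 50.5 ± 5.69 in control lungs. Its log2 change was 1.08 in SJY lungs (adjusted p = 0.000476) and 0.57 in ALI lungs (adjusted p = 0.0369), the ALI call being lost without ALI 2, ALI 4, ALI 5, control 5, control 6 or control 8 (adjusted p up to 0.0868). Cav1, whose caveolin product holds endothelial synthase inactive and which is abundant in alveolar type I cells, had 276.7 ± 45.9 FPKM in SJY lungs, 306.1 ± 150 in ALI lungs and 525.3 ± 73.0 in control lungs. Its log2 change was -0.93 in both (adjusted p = 0.0226 and 0.0365). The SJY call was lost without SJY 3, SJY 4 or control 8 (adjusted p up to 0.0545), and the ALI call without any of 7 libraries, ALI 1 to 3 and control 5 to 8 (adjusted p up to 0.0814). Nosip, which binds the synthases, was higher by 0.48 in SJY lungs (adjusted p = 0.0184), lost without control 6 or control 8 (adjusted p up to 0.0541), and the chaperone gene Hsp90ab1 was lower by a log2 change of -0.31 (adjusted p = 0.0373), lost without any of 6 libraries (SJY 3, 5 and 6, control 5, 6 and 8, adjusted p up to 0.0990) and with rescaled libraries (adjusted p = 0.384).

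Tetrahydrobiopterin is the cofactor of nitric oxide synthases. Of its 7 genes, 2 were higher and 1 lower in SJY lungs against control, where 14.6% and 18.1% of all genes were. In ALI lungs 0 were called by limma on FPKM, where 8.02% of all genes were called higher and 9.56% lower. There 2 of the 7 had an unadjusted p under 0.05, as 35.0% of all genes did, and limma-voom on fragments called 1. Gchfr, the feedback regulator of the first enzyme, had 15.7 ± 4.21 FPKM in SJY lungs, 7.09 ± 2.62 in ALI lungs and 4.62 ± 1.38 in control lungs, higher in SJY than in control by a log2 change of 1.57 (adjusted p = 0.000261). Gch1, that first and rate-limiting enzyme, had 18.7 ± 3.09 FPKM in SJY lungs, 18.1 ± 10.3 in ALI lungs and 10.2 ± 1.89 in control lungs, higher by 0.82 in SJY lungs (adjusted p = 0.0193), with 0.65 in ALI lungs (adjusted p = 0.0764, or 0.0343 without ALI 5). Qdpr, which recycles the cofactor, was lower by a log2 change of -0.43 in SJY lungs (adjusted p = 0.0491), a call that held in 3 of 15 fits leaving out 1 library (adjusted p up to 0.119) and was lost with rescaled libraries (-0.31, adjusted p = 0.120). In ALI lungs Qdpr and the synthesis enzyme Pts had log2 changes of -0.09 and -0.03 (adjusted p = 0.698 and 0.914), and the sign of both turned with rescaled libraries.

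Downstream of nitric oxide, 5 genes of its receptor and of cyclic GMP were tested. In SJY lungs 2 of the 5 were lower than in control, where 18.1% of all genes were. Pde5a, the cyclic GMP phosphodiesterase, was lower by a log2 change of -1.42 (8.58 ± 3.21 against 23.8 ± 5.89 FPKM, adjusted p = 0.0103), and Pde3a by -1.25 (adjusted p = 0.0288). The Pde3a call was lost without any of 6 libraries (SJY 1, 3 and 4, control 5, 6 and 8, adjusted p up to 0.0727). In ALI lungs 0 of the 5 were called by limma on FPKM and by limma-voom, with 1 at an unadjusted p under 0.05, where 35.0% of all genes were. The log2 changes there were -0.998 for Pde5a, -0.97 for Gucy1a1 and -0.69 for Gucy1b1 (adjusted p = 0.0766, 0.163 and 0.273). Gucy1a1 and Gucy1b1 are the subunits of the nitric oxide receptor. Pde5a passed without ALI 4 (adjusted p = 0.0383) or ALI 5 (adjusted p = 0.0421). On leaving out 1 library, the changes ran from -1.21 to -0.63 for Pde5a, -1.21 to -0.33 for Gucy1a1 and -0.93 to -0.15 for Gucy1b1. The list's 6 genes with values summed to 19.5 FPKM in ALI 1, 58.85 to 118.2 in ALI 2 to 5 and 101 to 131.2 in control. With rescaled libraries 1 of the 5 was called higher and 2 lower in SJY lungs, where 2382 and 2294 of all 13457 genes were.

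**Figure D4:**
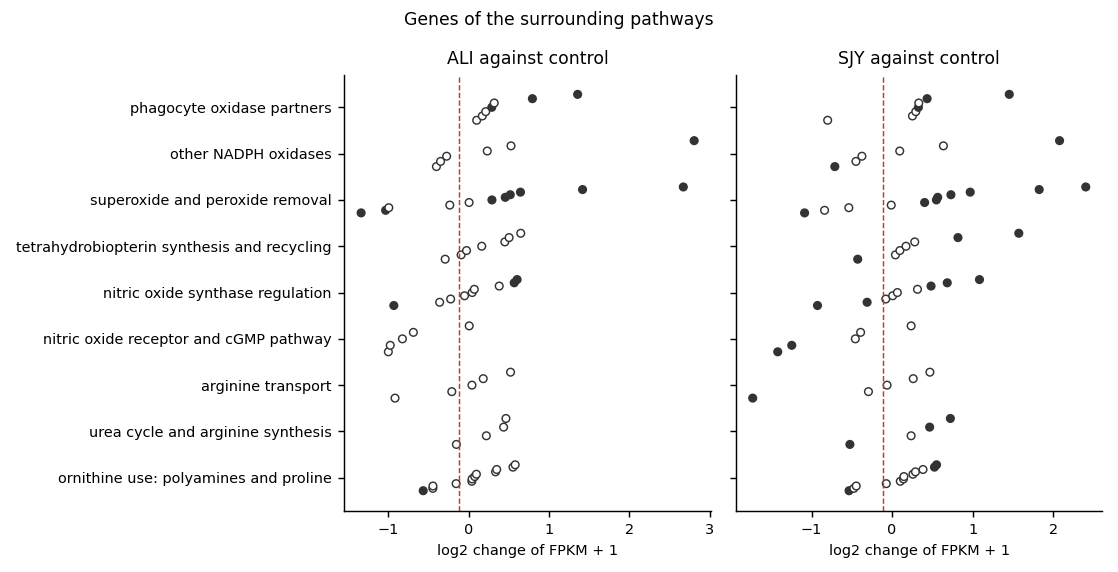
Log2 change of FPKM + 1 (horizontal axes) of each tested gene of 9 surrounding pathways (rows) in ALI and SJY lungs against control. Filled points passed an adjusted p of 0.05, and the dashed line is the median of all 13457 genes, at -0.12 and -0.11. Filled points lie on both sides in the removal list, and the cyclic GMP list has 2 filled points to the left in SJY and 0 filled in ALI.

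Arg1 (ENSRNOG00000013304), the cytosolic arginase, did not differ between groups beyond the spread of its libraries. It had 8.63, 14.6, 20.8, 13.2 and 15.9 FPKM in SJY libraries, against 27.1, 12.1, 17.3, 8.24 and 10.5 in ALI libraries and 9.67, 9.62, 11.0, 11.5 and 15.3 in control libraries. The highest value was in ALI 1 and the lowest in ALI 4, so that the ALI group enclosed all the others. The log2 change against control was 0.30 in SJY lungs (95% interval -0.27 to 0.87, adjusted p = 0.414) and 0.27 in ALI lungs (-0.30 to 0.84, adjusted p = 0.482). Without ALI 1 the ratio of mean FPKM of ALI over control was 1.05, against 1.32 with it.

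Arg2 (ENSRNOG00000053811), the mitochondrial arginase, had 3.02, 2.39, 1.95, 1.25 and 1.80 FPKM in SJY libraries, against 2.43, 2.75, 1.93, 2.48 and 3.09 in ALI libraries and 4.46, 2.27, 2.96, 2.58 and 3.32 in control libraries. Of the SJY libraries, 3 lay below all of control, and the groups overlapped. Each value rests on 26 to 87 fragments. The log2 change was -0.42 in SJY lungs (-0.80 to -0.04, adjusted p = 0.0811) and -0.21 in ALI lungs (-0.58 to 0.17, adjusted p = 0.419), both against control. The SJY value passed without SJY 1 (adjusted p = 0.0395).

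Arg1 made up 86.5% ± 7.31 of the FPKM of the 2 arginases in SJY lungs, 83.5% ± 7.01 in ALI lungs and 78.4% ± 5.72 in control lungs. The ratio of Arg1 to Arg2 ran from 2.85 to 10.7 in SJY libraries, from 3.33 to 11.1 in ALI libraries and from 2.17 to 4.60 in control libraries, with overlap between all groups. The ratio of Nos2 to Arg1, 2 enzymes that draw on the same substrate, was 0.101, 0.150, 0.1002, 0.107 and 0.144 in SJY libraries, against 0.117, 0.115, 0.0451, 0.135 and 0.0189 in ALI libraries and 0.0109, 0.0233, 0.0145, 0.0236 and 0.0160 in control libraries. All SJY libraries and 4 of 5 ALI libraries were above control, and Arg1 remained the more abundant in all 15. These ratios were not tested.

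**Figure D5:**
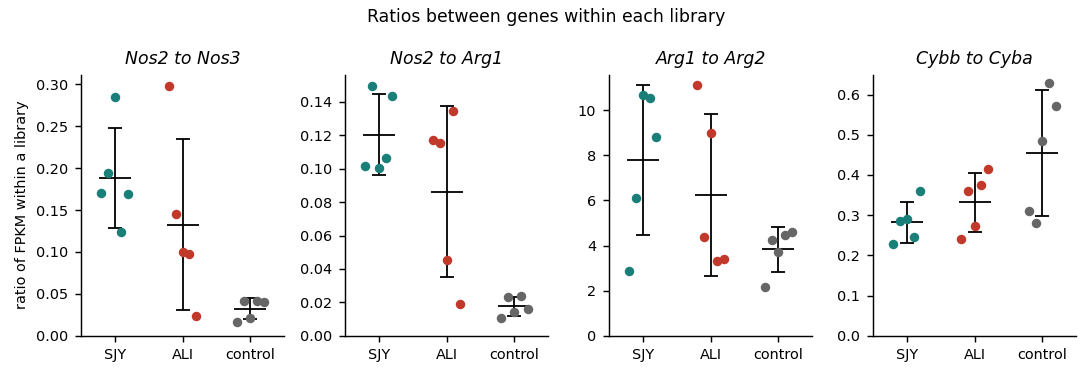
Ratios of FPKM between pairs of genes within each library (vertical axes, from 0), by group, with mean and SD of 5 libraries. Nos2 to Nos3 and Nos2 to Arg1 are higher in all SJY libraries than in control libraries, and ALI 5 lies within the control range in both. Arg1 to Arg2 and Cybb to Cyba overlap between the groups.

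Ass1 (ENSRNOG00000008837), which joins citrulline and aspartate, had 9.48, 10.5, 18.4, 11.5 and 9.28 FPKM in SJY libraries, against 23.8, 9.54, 14.5, 14.97 and 14.5 in ALI libraries and 15.3, 21.9, 12.1, 20.5 and 18.1 in control libraries. Of the SJY libraries, 4 were below every control library and the fifth, SJY 4, was within the control range. The log2 change was -0.55 in SJY lungs (-1.03 to -0.07, adjusted p = 0.0729) and -0.20 in ALI lungs (-0.68 to 0.28, adjusted p = 0.549), both against control. The SJY value passed without SJY 4 (adjusted p = 0.0257), ALI 1 (adjusted p = 0.0301) or control 6 (adjusted p = 0.0457).

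In the 3 lists of arginine transport, arginine synthesis and ornithine use, 1 of 21 tested genes was called in ALI lungs against control, or 4 of 21 with rescaled libraries. Without rescaling, 8.02% of all genes were called higher there and 9.56% lower. With rescaling, 2728 of all 13457 genes were called there in either direction. Of 5 tested arginine transporters, 0 were called there by limma on FPKM, where an unadjusted p under 0.05 was found for 1 higher and 1 lower, and limma-voom called 1 higher. Slc7a7, a subunit of the transporter of cationic amino acids in macrophages, had 30.9 ± 8.97 FPKM in ALI lungs and 20.7 ± 3.71 in control lungs, a log2 change of 0.52 (adjusted p = 0.0715) that passed without ALI 1 (adjusted p = 0.0182) and with rescaled libraries (adjusted p = 0.00951). Its partner Slc3a2 and its relative Slc7a6 had changes of 0.04 and -0.21 (adjusted p = 0.828 and 0.466). In SJY lungs 1 transporter was lower than in control and 0 higher, where 18.1% and 14.6% of all genes were. Slc7a2, the lower one, is a cationic amino acid transporter used by macrophages. It had 4.26 ± 2.66 FPKM in SJY lungs and 14.9 ± 5.57 in control lungs, a log2 change of -1.73 (adjusted p = 0.00355). In ALI lungs Slc7a2 had 7.35 ± 2.54 FPKM.

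Of the urea cycle and arginine synthesis, 4 of 7 genes were tested, since the liver enzymes Otc and Cps1 and the cofactor enzyme Nags fell under the filter. In SJY lungs 2 of the 4 were higher and 1 lower than in control, where 14.6% and 18.1% of all genes were. Asl, which releases arginine from the product of Ass1, had 21.7 ± 3.80 FPKM in SJY lungs, 17.98 ± 1.16 in ALI lungs and 15.3 ± 1.39 in control lungs, higher in SJY by 0.47 (adjusted p = 0.00846). Gatm, which uses arginine to make creatine, was higher in SJY lungs by 0.72 (adjusted p = 0.0183), and the ornithine carrier Slc25a15 was lower by a log2 change of -0.52 (adjusted p = 0.0266), lost without SJY 3, control 6 or control 8 (adjusted p up to 0.0576) and with rescaled libraries (adjusted p = 0.153). In ALI lungs 0 were called by limma on FPKM, with 0 at an unadjusted p under 0.05 and 1 called higher by limma-voom. Gatm, Asl and Slc25a15 had changes there of 0.44, 0.22 and -0.15 (adjusted p = 0.159, 0.195 and 0.538), and Gatm passed without ALI 1 (adjusted p = 0.00537) and with rescaled libraries (adjusted p = 0.0393).

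Of 12 tested genes that use ornithine for polyamines and proline, 2 were higher and 1 lower in SJY lungs against control, where 14.6% and 18.1% of all genes were. In ALI lungs 0 were higher and 1 lower, where 8.02% and 9.56% of all genes were. With rescaled libraries 1 of the 12 was higher and 1 lower, where 1473 and 1255 of all 13457 genes were. Oat, the aminotransferase on the way from ornithine to proline, had 51.8 ± 0.957 FPKM in SJY lungs, 51.1 ± 7.29 in ALI lungs and 75.8 ± 8.90 in control lungs, with log2 changes of -0.53 (adjusted p = 0.00225) and -0.56 (adjusted p = 0.00288). Oaz1, the antizyme that leads ornithine decarboxylase to degradation, was higher in SJY lungs by 0.55 (adjusted p = 0.00958). Smox, the spermine oxidase, whose reaction yields hydrogen peroxide, was higher in SJY lungs by 0.53 (adjusted p = 0.0365), a call lost without any of 7 libraries (SJY 1, 4, 5 and 6, control 6, 7 and 8, adjusted p up to 0.102).

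Between SJY and ALI lungs, the comparison that bears on the herbal formula, 0 of the 9 genes were called by limma on FPKM, where 0.00743% of all genes were. Limma-voom called 0 of all genes. By limma on FPKM, 2 of the 9 had an unadjusted p under 0.05, as 11.8% of all genes did. Both were higher in SJY lungs. Ncf4 had a log2 change of 0.49 (95% interval 0.22 to 0.75, adjusted p = 0.180 by limma), and no overlap between the groups, which in this direction 2.24% of all genes showed. It passed without ALI 1 (log2 change 0.54, adjusted p = 0.0466) and in no other of 23 settings. Cyba had 0.29 (0.01 to 0.57, adjusted p = 0.401).

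For the other 7 genes the interval of the log2 change of SJY against ALI included 0. It was -0.35 to 0.49 for Cybb, -0.23 to 0.53 for Ncf1, -0.21 to 0.89 for Nos2, -0.47 to 0.39 for Nos3, -0.54 to 0.60 for Arg1, -0.59 to 0.16 for Arg2 and -0.83 to 0.13 for Ass1. These intervals do not show that the groups were alike. For Nos2 the highest ALI library lay above all SJY libraries and the lowest below all of them, and the ratio of mean FPKM was 1.33 with ALI 1 and 2.03 without it. Of the 66 tested genes in the 9 surrounding lists, 0 were called between SJY and ALI by limma on FPKM or limma-voom. An unadjusted p under 0.05 by limma on FPKM was found for 6 higher and 4 lower, as for 11.8% of all genes. Without ALI 1, 2 of the 66 were called, both higher in SJY lungs, where 181 of all 13457 genes were called. In that fit 7 of the 13 tested neutrophil markers were called higher as well.

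In every group the order of levels began with Cyba and ended with Arg2 and then Nos2. Behind Cyba, Ncf4 averaged 127.5 ± 11.8 FPKM in SJY lungs, above Cybb at 96.2 ± 19.5 and Ncf1 at 75.1 ± 15.6, with neighbours in this order overlapping in range. In ALI lungs Ncf4 and Cybb both averaged 90.8 FPKM (SD 11.8 and 12.4), above Ncf1 at 67.99 ± 16.5. Control lungs had Cybb at 53.0 ± 15.6, above Ncf4 at 23.9 ± 3.74 and Ncf1 at 22.3 ± 4.04, the last pair overlapping in range. Arg1, Ass1 and Nos3 came next in all 3 groups, at 14.6 ± 4.4, 11.8 ± 3.76 and 9.73 ± 3.39 FPKM in SJY lungs, 15.1 ± 7.52, 15.5 ± 5.17 and 9.59 ± 1.49 in ALI lungs, and 11.4 ± 2.32, 17.6 ± 3.96 and 6.44 ± 0.834 in control lungs. Neighbours among these overlapped in SJY and ALI lungs, while in control lungs Nos3 lay below both others. Arg2 averaged 2.08 ± 0.664, 2.54 ± 0.426 and 3.12 ± 0.849 FPKM, and Nos2 1.77 ± 0.604, 1.33 ± 1.13 and 0.201 ± 0.0675 FPKM, in SJY, ALI and control lungs, with ranges that overlapped in the first 2 groups but not in control.

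Libraries of 1 group also differed among themselves in these genes. After each group's mean was subtracted, the genes with the highest Pearson r to a member over the 15 libraries were, for Nos2, Trim72 (r = 0.95), Cnga4 (0.93) and AABR07044631.2 (0.92), for Arg1, Kng1 (0.95), Rabl3 (0.93) and Zbtb8os (0.88), and for Cybb, Cnot7 (0.91), Tatdn1 (0.88) and Clec4a2 (0.88). Those for Nos3 were Hnrnpr (0.90), Ap1ar (0.87) and Senp3 (0.87), and those for Arg2 RGD1311745 (0.88), Thoc7 (0.85) and Trappc2l (0.83). Spearman's rho was between 0.68 and 0.91 for these 15 pairs, and r without ALI 1 between 0.80 and 0.93. They were picked as the highest of 13457 genes and share libraries and scaling, so the values are a description.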

How the data were processed

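The deposited values are FPKM per gene and library, per the file headers. TRIzol served for RNA extraction and the NEBNext Ultra RNA kit for the libraries, per the labels' protocols. Trimming with cutadapt, alignment with HISAT2 and StringTie on Rnor_6.0 are named in the submitters' processing notes, with no versions. Strand settings are not given in the sources used here, so antisense partners may share reads.

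FPKM were turned into log2(FPKM + 1), genes with at least 1 FPKM in at least 5 of 15 libraries were kept (13457), and limma 3.58.1 in R 4.3.3 fitted the 3 groups together (trend and robust, two-sided). Fold changes on this scale understate low genes. The procedure was tested on simulated data. Whole fragments were recovered from the FPKM steps (9433336 to 12403341 per library) for counting intervals and a limma-voom alternative added after the data were seen. Other alternatives were rescaling by median of ratios, a pseudocount of 0.1, other filters, fits of 2 groups, plain limma settings, the replicate number as a block, and leaving out each library. The main tests used all 15 libraries.

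The 9 genes and the gene lists were chosen with earlier results of these data known. Per list and comparison, up to 3 called genes per direction are named by size of change, or the 3 most abundant where none was called. For SJY against ALI the lists are given as counts. A total of 9 of 171 list genes had no match by symbol and were not analysed here, and 1 gene that the naming rule picked is not reported here. Promoter windows come from RefSeq (GRCr8), and 4 of the 9 genes have no window in that table. The motif letters were a fixed list written for the search and do not come from RefSeq.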

Additional observations from a re-analysis of the deposited data

Results flagged for a closer look

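Each of the 27 sets of 5 libraries (9 genes in 3 groups) was searched for 1 library far from the other 4, by Dixon's gap divided by the range (critical value 0.71). Chance alone gives about 1 such set in 20. In 3 sets a library stood out. Control 4 held 155.1 FPKM of Cyba, where the other control libraries held 107.8 to 113.3 FPKM. The same library held 29.4 FPKM of Ncf1, where the others held 19.5 to 21.4 FPKM. SJY 4 held 18.4 FPKM of Ass1, where the other SJY libraries held 9.28 to 11.5 FPKM. The calls of Cyba and Ncf1 against control did not change without control 4, and Ass1 passed the test in SJY against control without SJY 4, as given with its values.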

How the results depend on the processing

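The calls of Cybb, Cyba, Ncf1 and Ncf4 against control held in all 23 alternatives run in both LPS groups. The number of the 9 genes called was 4 to 6 for ALI against control and 5 to 7 for SJY against control on leaving out 1 library, and 0 to 1 for SJY against ALI. Over all genes, leaving out 1 library gave 1556 to 2897 calls for ALI against control (2366 with all), with 1564 without control 5 and 1556 without control 7, and 0 to 181 for SJY against ALI (1 with all, 5 without control 5, 181 without ALI 1). A fit of the 2 groups gave 1332 calls for ALI against control and lost the Nos2 call (adjusted p = 0.0729). Of 12 list genes named as called there it lost 6: Nostrin, Prdx1, Pik3cg, Sod3, Cav1 and Rac1 (adjusted p 0.0506 to 0.125). SJY against ALI gave 0 calls with rescaled libraries, with a pseudocount of 0.1, with no filter, in a fit of 2 groups, with plain limma settings and with limma-voom, against 1587 genes at an unadjusted p under 0.05. A filter at a mean of 5 FPKM removed Nos2 and Arg2.

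The replicate numbers were taken as names of libraries, so the main fit had no block. Deviations of same-numbered libraries correlated between -0.39 and 0.30. As a hint from the data, 4 of 8 libraries in SJY against ALI, 3 of 6 in SJY against control and 0 of 4 in ALI against control were closest to their own number. Each had the 5 libraries of the other group to be closest to. Whether equal numbers mark a pair was not tested. With the replicate number as a block, calls numbered 313 for ALI against control and 1142 for SJY against control, and Nos2 was not called in either (adjusted p = 0.36 and 0.107). Of the list genes named as called, Noxo1, Prdx6, Rac2 and Sod2 kept the call under the block in ALI against control, and the other 8 of 12 lost it (adjusted p 0.0609 to 0.466). In SJY against control those 4 and Gchfr, Nostrin, Prdx1 and Prdx5 kept it, and the other 17 of 25 lost it (adjusted p 0.0819 to 0.436).

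Small changes turned sign. With rescaled libraries, Qdpr and Pts became 0.0487 and 0.109 in ALI against control and Arg1 -0.00385 in SJY against ALI. With the replicate block, Qdpr, Pts, Slc3a2 and Slc7a6 became 0.00302, 0.000104, -0.00695 and 0.0663 in ALI against control and Arg1 -0.0419 in SJY against ALI. With limma-voom, Qdpr and Pts became 0.0262 and 0.0888. On leaving out 1 library, the change in SJY against ALI ran from -0.14 to 0.26 for Arg1, from -0.16 to 0.15 for Nos3 and from -0.00282 to 0.15 for Cybb, and in ALI against control from -0.0457 to 0.10 for Slc3a2 and from -0.13 to 0.0494 for Pts. The cause was not tested. Depth limits Nos2 in control lungs (9 to 23 fragments) and Arg2 (26 to 87) most.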
